A study of Mus musculus with 6 samples.

Results

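Complex I of the mitochondrial respiratory chain (NADH:ubiquinone oxidoreductase) was examined in the mouse retina through its nuclear-encoded subunit genes. The members were the genes whose symbol begins with Nduf, then a, b, c, s or v, then a digit, and that had a probe set annotated to that symbol alone. This gave 35 genes of 18193 with a single-symbol probe set, measured by 73 of 45037 probe sets. Each gene was represented by its probe set with the highest mean log2 signal over the 6 arrays, a rule that uses no difference between groups, although the gene set itself was chosen with earlier results of these data known. All 35 passed the filter on low signal. The rule also takes in Ndufa4, first described in complex I and since assigned to cytochrome c oxidase, and its paralog Ndufa4l2. Both are counted among the 35 members in all counts and medians over the 35, and their own values are given apart.

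Complex I takes electrons from NADH, passes them through a flavin and a chain of iron-sulfur clusters to ubiquinone, and pumps protons across the inner mitochondrial membrane. Its matrix arm carries the flavin and the clusters, its membrane arm carries the proton pumps, and many accessory subunits surround both. In the retina the inner segments of photoreceptors are densely packed with mitochondria, and mice without the accessory subunit Ndufs4 develop a neurological disease that includes loss of retinal function. Estrogen-related receptors, together with the coactivator encoded by Ppargc1a, are known to drive transcription of many oxidative phosphorylation genes.

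The study set retinas labelled homozygous knockout (-/-) for ERRβ, the receptor encoded by Esrrb, on a mixed C57Bl/6 x Sv129 background, against wildtype C57Bl/6 retinas. Each group had 3 arrays. All mice were at postnatal day 21, were kept on standard chow with equal hours of light and dark, and are given as of mixed sex, and each RNA came from 2 pooled retinas. The labels do not say whether samples of a group came from separate animals, so p-values measure only the spread between these samples. Strain background differed together with genotype, and their effects cannot be told apart. RNA was measured on Affymetrix 3′ expression arrays as 1 signal per probe set.

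The arrays came on different overall scales. Replicates 1 and 2 of each group had a trimmed mean of 500 and replicate 3 of each group a trimmed mean of 150, and log2 signals correlated at 0.91 to 0.95 within these sets and at 0.848 to 0.872 between them. Log2 fold changes (labelled knockout minus wildtype) therefore come from a limma fit with the scaling set as a block, and each set is also given by itself. The 3 probe sets of Esrrb had log2 fold changes of 0.19 to 0.45, and none passed. No source used here places these probes inside or outside the deletion, so they do not check the labels. All 7 lens marker genes were called higher, with a summed signal of 31443 to 35806 in labelled knockout and 1174 to 1477 in wildtype arrays near 500, and near 150 it was 18639 in labelled knockout against 2515 in wildtype. Of 6 pigment cell markers 4 were called higher and none lower (summed signal 34908 to 41347 in labelled knockout against 30434 to 30852 in wildtype near 500, and 1517 against 839 near 150). Of 8 rod photoreceptor markers none was called, with a median of -0.18 and a summed signal of 200574 to 225586 in labelled knockout against 247146 to 249028 in wildtype near 500 and 33775 against 33897 near 150. No marker on these lists had a signal of 0. For Actb, the ratio of 3′ to 5′ probe signals was 1.82, 1.66 and 1.67 in labelled knockout against 1.83, 1.89 and 2.32 in wildtype replicates 1, 2 and 3. For Gapdh it was 0.731, 0.719 and 0.731 in labelled knockout against 0.727, 0.712 and 0.779 in wildtype. The part of these in the results below was not tested. In whole retina, fewer cells of a type and less RNA per cell cannot be told apart.

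Most complex I genes had nearly the same signal in both groups, and a minority of them stood below zero. Of the 35 members, 1 was called lower (Ndufs5), none was called higher and 34 did not pass limma's test at an adjusted p of 0.05. Among all 27022 probe sets tested, 2.25% were called, 1.22% as lower and 1.04% as higher, so the share of members called is near that background. At an unadjusted p below 0.05, 8 of the 35 members were higher and 4 of the 35 lower, against 9.33% and 11.1% of all probe sets. The median log2 fold change was 0.11 for the members and -0.02 for all probe sets tested, and 29 of 35 members (82.9%) were above zero, against 47.6% of all probe sets. The members' quartiles were 0.02 and 0.18, and 25 of 35 lay within 0.2 of zero. Over all 27022 probe sets tested the quartiles were -0.22 and 0.16, and 14175 lay within 0.2 of zero. Standard errors ran from 0.067 to 0.28 with a median of 0.077 for the members, against a median of 0.16 for all probe sets. Most members were far brighter than the median probe set. No comparison with all probe sets, here or below, was matched for signal.

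**Figure D1:**
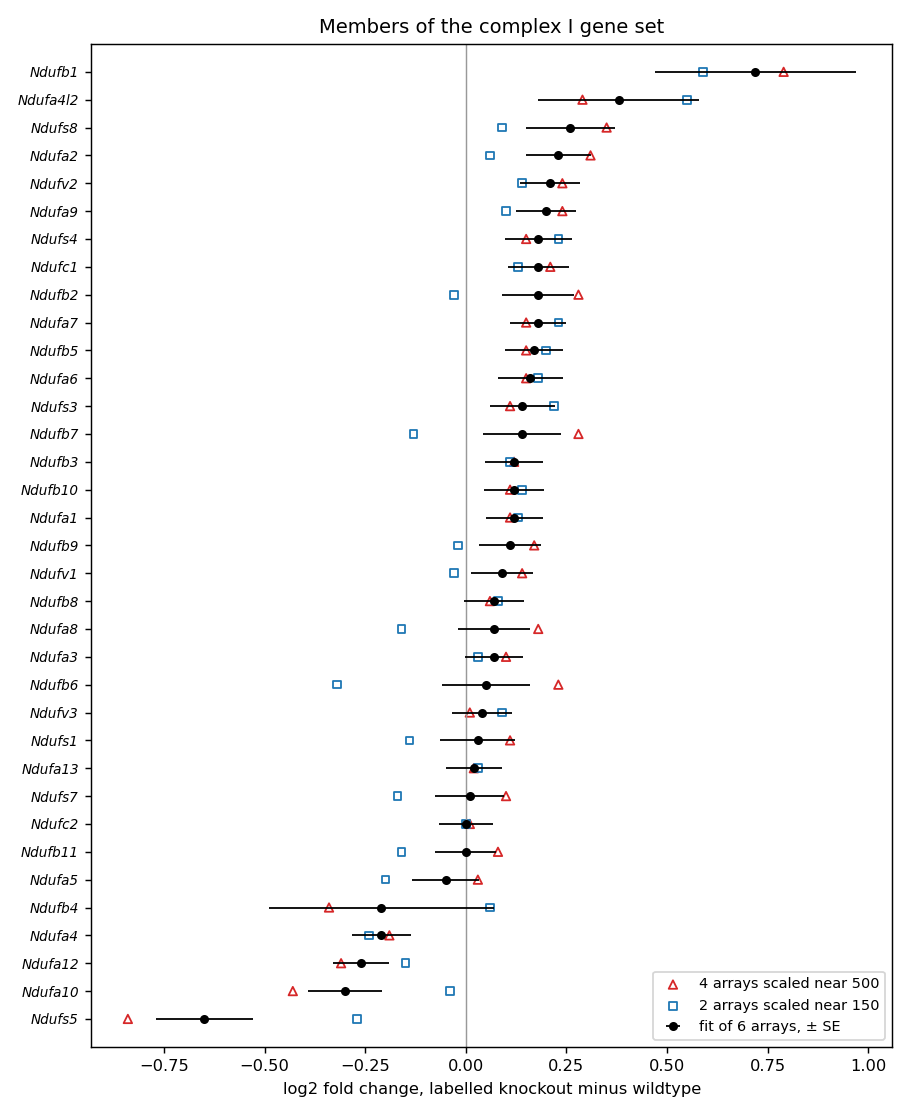
Log2 fold change (labelled knockout minus wildtype, horizontal axis) of the 35 members, ordered by the fit of all 6 arrays (black points, bars ± SE, n = 3 each), with the values within the 4 arrays scaled near 500 (triangles) and the 2 scaled near 150 (squares). Most members lie between 0.02 and 0.18, Ndufs5 stands lowest at -0.65 and Ndufb1 highest at 0.72.

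Ndufs5 encodes a small accessory subunit on the intermembrane-space side of the membrane arm. Its probe set read 2803 and 3302 in labelled knockout arrays scaled near 500, against 5355 and 5548 in wildtype arrays, and 284 against 341 in the arrays scaled near 150. Both sets therefore had the labelled knockout arrays below the wildtype arrays, with a wider gap near 500 (log2 fold change -0.84) than near 150 (-0.27). Over the 6 arrays the log2 fold change was -0.65 ± 0.12 (SE, n = 3 each; 95% interval -0.93 to -0.37; limma adjusted p = 0.032), a 1.57-fold lower signal. With the replicate number as a block it did not pass (limma adjusted p = 0.072), and no member was called in either direction, where 0.396% of all probe sets were called lower and 0.344% higher. Leaving out replicate 1 or 2 of either group also ended the call, with adjusted p from 0.137 to 0.215 and log2 fold changes from -0.66 to -0.53.

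A second probe set of Ndufs5 did not share this difference. It is annotated to both Ndufs5 and the transcribed pseudogene Ndufs5-ps, and so lay outside the rule. It read 4539 and 4528 in labelled knockout against 4486 and 4270 in wildtype arrays near 500, and 279 against 269 near 150, and these values nearly coincide. Its log2 fold change was 0.05 ± 0.074 (limma adjusted p = 0.74). The log2 ratio of the first probe set to the second ran from -0.70 to 0.02 in labelled knockout and from 0.26 to 0.38 in wildtype arrays, and these ranges did not overlap. This comparison was made after both probe sets had been seen, and is a description. The platform annotation gives both probe sets an accession that RefSeq assigns to Ndufs5-ps, although it names the first for Ndufs5 alone. Signals of the gene and its pseudogene cannot be told apart from these names, so no direction is given for the Ndufs5 transcript itself. Which of them the probes match best, and whether sequence differences between the strain backgrounds lie under the probes, was not tested.

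**Figure D2:**
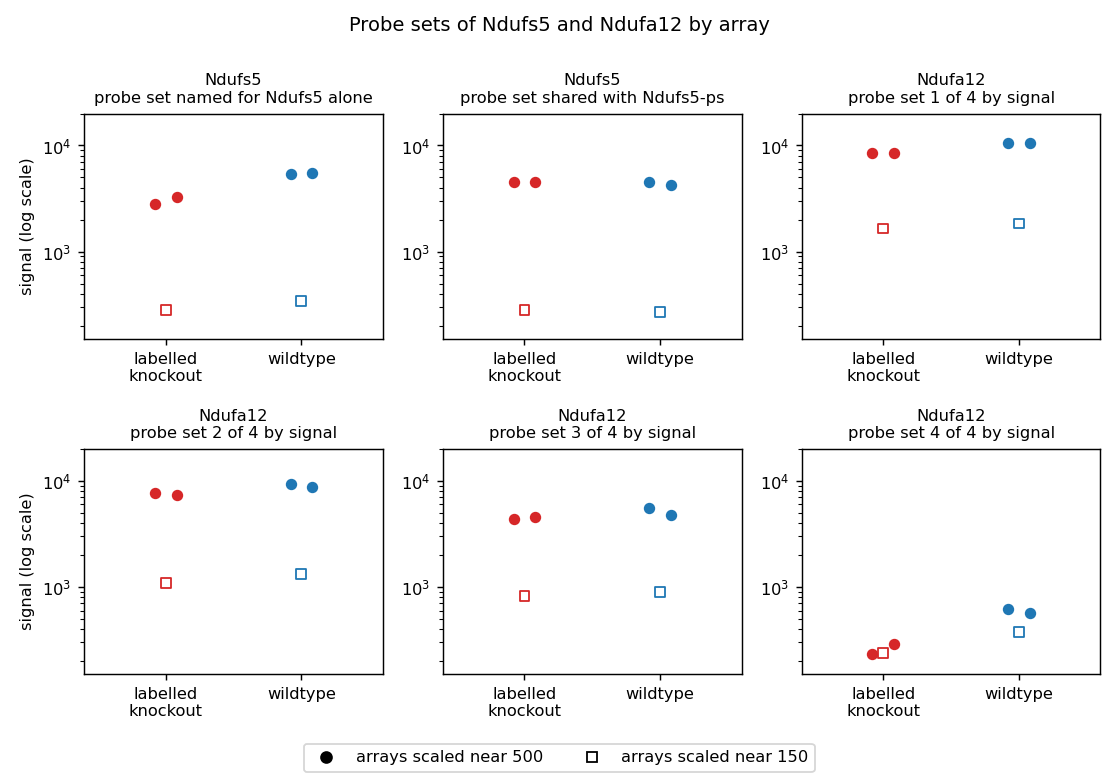
Signal on a log axis in each array for the 2 probe sets of Ndufs5 and the 4 of Ndufa12, with the labelled knockout arrays on the left and the wildtype arrays on the right of each panel (filled circles, arrays scaled near 500; open squares, near 150). The first Ndufs5 probe set is lower in labelled knockout (2803 and 3302 against 5355 and 5548), the second is level, and the 4 of Ndufa12 are each lower in labelled knockout within both scales.

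Promoter windows are shown for Ndufs5, the only member called, and for Ndufb4, the only member whose window holds the response element of the estrogen-related receptors when its second base is left free. The windows run from 250 bases before to 50 bases after the annotated gene start, on the gene's strand, 5′ to 3′, and were taken from RefSeq (GRCm38.p6), in which 31 of 35 members had 1 or more windows (33 in all). Ndufs5 lies at chr4:123718137-123718436 on the minus strand, and Ndufb4 at chr16:37654319-37654618 on the minus strand. Capitals mark the motif named below in each.
Ndufs5: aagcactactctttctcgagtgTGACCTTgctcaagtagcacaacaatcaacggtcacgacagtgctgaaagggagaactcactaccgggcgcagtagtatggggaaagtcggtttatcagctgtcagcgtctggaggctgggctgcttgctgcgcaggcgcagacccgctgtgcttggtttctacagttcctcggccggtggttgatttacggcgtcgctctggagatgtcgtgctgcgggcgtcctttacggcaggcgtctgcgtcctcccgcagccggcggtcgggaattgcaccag
Ndufb4: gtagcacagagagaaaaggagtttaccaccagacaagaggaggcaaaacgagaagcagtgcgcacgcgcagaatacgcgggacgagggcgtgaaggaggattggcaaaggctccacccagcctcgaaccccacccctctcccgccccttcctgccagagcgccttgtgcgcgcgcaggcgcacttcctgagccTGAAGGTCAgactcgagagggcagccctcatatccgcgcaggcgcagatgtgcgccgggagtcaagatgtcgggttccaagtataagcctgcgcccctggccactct

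Motifs were searched on both strands. The element TCAAGGTCA was in 0 of 33 member windows and in 0.423% of 32851 windows of all genes. With its second base free, TNAAGGTCA was in 1 member window, that of Ndufb4 at 57 bases before the start, and in 1.28% of all windows. Its shorter core AAGGTCA, which is contained in both and was added after these counts were seen, was in 3 member windows (Ndufs5, Ndufb2 and Ndufb4) and in 4.72% of all windows. In Ndufs5 it lies on the opposite strand, 228 bases before the start. The NRF1 core GCGCATGC was in 2 member windows (Ndufa6 and Ndufa8; 2.71% of all windows) and the ETS site CCGGAAGT in 1 (Ndufs3; 3.89% of all windows). These are matches of letters in a short window and do not show binding.

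The 6 core subunits measured, all of the matrix arm, which carries the flavin and the iron-sulfur clusters, were at or slightly above zero, and none passed (median 0.12, range 0.01 to 0.26). Ndufs8, which holds iron-sulfur clusters close to the ubiquinone site, read 5709, 7524 and 1200 in labelled knockout replicates 1, 2 and 3, against 5040, 5214 and 1131 in wildtype. Its log2 fold change was 0.26 ± 0.11 (limma adjusted p = 0.214), and the labelled knockout arrays stood above the wildtype arrays in both sets, with labelled knockout replicate 2 the highest. Its 6 kept probe sets ran from -0.72 to 0.57, of which 5 were above zero in both sets of arrays.

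Ndufv2, a subunit with an iron-sulfur cluster beside the flavin, read 7192, 7302 and 810 in labelled knockout against 5816, 6484 and 733 in wildtype replicates 1, 2 and 3 (0.21 ± 0.075, limma adjusted p = 0.168). Ndufv1, which binds NADH and the flavin, read 6548, 7172 and 733 in labelled knockout against 6127, 6277 and 747 in wildtype (0.09 ± 0.077). Ndufs3 read 3448, 3613 and 497 in labelled knockout against 3120, 3451 and 425 in wildtype (0.14 ± 0.081). In these 3 genes the labelled knockout arrays were the higher ones near 500 except for an overlap in Ndufs3, and near 150 Ndufv1 was lower. Ndufs1, the largest iron-sulfur subunit, read 2846, 3302 and 550 in labelled knockout against 2826, 2836 and 607 in wildtype (0.03 ± 0.093). Ndufs7, which holds the last cluster of the chain, read 4576, 4884 and 394 in labelled knockout against 4292, 4546 and 443 in wildtype (0.01 ± 0.086). Both stood above wildtype near 500 (0.11 and 0.10) and below it near 150 (-0.14 and -0.17).

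Accessory subunits of the matrix arm had a median of 0.17 over 8 members, of which none passed, 6 were above and 2 below zero. Ndufa2, a subunit with a thioredoxin-like fold, read 6470, 6393 and 412 in labelled knockout replicates 1, 2 and 3 against 5062, 5331 and 396 in wildtype (0.23 ± 0.081, limma adjusted p = 0.165). It was higher in both sets, at 0.31 near 500 and 0.06 near 150. Ndufa9, which lies close to the ubiquinone site, had 0.20 ± 0.075, Ndufs4, whose loss in mice is named above, 0.18 ± 0.083, Ndufa7 0.18 ± 0.07 and Ndufa6 0.16 ± 0.081. All 5 kept probe sets of Ndufa7 were above zero in both sets of arrays (0.13 to 0.28). Ndufv3 had 0.04 ± 0.074 and Ndufa5 -0.05 ± 0.083, and in these representative probe sets the arrays overlapped between the groups near 500. A second probe set of Ndufa5 did not overlap there, with 1908 and 2015 in labelled knockout against 2453 and 2493 in wildtype (-0.34). Near 150 its sign was opposite, with 389 against 326 (0.26). Over the 6 arrays it did not pass (-0.14 ± 0.12, limma adjusted p = 0.56), and near 500 alone it did (limma adjusted p = 0.0213).

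Ndufa12 had the lowest value among the matrix arm subunits. It encodes an accessory subunit that is a paralog of the assembly factor Ndufaf2. Its representative probe set read 8458 and 8584 in labelled knockout against 10582 and 10520 in wildtype arrays near 500, and 1652 against 1838 near 150. The labelled knockout arrays were lower in both sets, with a log2 fold change of -0.26 ± 0.07 that did not pass (limma adjusted p = 0.0897). All 4 probe sets of Ndufa12 were below zero in both sets of arrays, with log2 fold changes from -1.0 to -0.17. The dimmest of them read 235 and 291 in labelled knockout against 616 and 573 in wildtype arrays near 500, and 241 against 373 near 150. This probe set passed, with -1.0 ± 0.16 (limma adjusted p = 0.0152), while 2.25% of all probe sets did. The 4 probe sets share the arrays and a gene and are not replicates, and the brighter 3 differed much less.

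In the membrane arm, the 8 members of the Ndufa and Ndufc kinds together with Ndufs5 had a median of 0.04, and Ndufs5 was called lower while the other 7 did not pass. Ndufa10, an accessory subunit with a fold like that of nucleoside kinases, read 5516 and 5427 in labelled knockout against 7141 and 7616 in wildtype arrays near 500. Near 150 it read 867 against 894. The groups thus stood clearly apart in the first set (-0.43) and nearly coincided in the second (-0.04). Over all arrays the log2 fold change was -0.30 ± 0.092 (limma adjusted p = 0.118), and its second, dim probe set had -0.51 ± 0.26. Ndufa1, one of the brightest, a small membrane subunit encoded on the X chromosome, read 12257, 13559 and 1295 in labelled knockout replicates 1, 2 and 3 against 12064, 11845 and 1183 in wildtype (0.12 ± 0.071). Ndufc2 read 10828, 11050 and 1384 in labelled knockout against 10596, 11204 and 1386 in wildtype, which overlap (0.00 ± 0.067; 95% interval -0.15 to 0.15). Ndufc1 had 0.18 ± 0.076, Ndufa8 0.07 ± 0.09, Ndufa3 0.07 ± 0.072 and Ndufa13 0.02 ± 0.07.

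The Ndufb subunits of the membrane arm had a median of 0.12 over 11 members, of which none passed and 10 were above zero. Ndufb1, a small subunit of the distal membrane arm, had the highest value of all members and a dim probe set. It read 226 and 224 in labelled knockout against 142 and 119 in wildtype arrays near 500, and 32.9 against 21.8 near 150. The labelled knockout arrays were higher in both sets, with 0.72 ± 0.25 (95% interval 0.17 to 1.28; limma adjusted p = 0.148). Ndufb1 was the only member on the chromosome that carries Esrrb, with 43 tested genes between them.

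Ndufb4, another dim representative, read 102, 89.5 and 48.7 in labelled knockout replicates 1, 2 and 3 against 108, 134 and 46.9 in wildtype, with -0.21 ± 0.28. Its brighter probe sets are annotated also to the copies Ndufb4b and Ndufb4c and lay outside the rule. They had 0.20 ± 0.079 and 0.21 ± 0.077, so the sign for Ndufb4 depends on the probe set. Ndufb11, among the brightest and encoded on the X chromosome, read 11996, 12244 and 1469 in labelled knockout against 11397, 11457 and 1645 in wildtype (0.00 ± 0.076), above wildtype near 500 and below it near 150. Ndufb6 had 0.23 near 500 and -0.32 near 150, and so had opposite signs in the sets. The remaining 7 (Ndufb2, Ndufb3, Ndufb5, Ndufb7, Ndufb8, Ndufb9 and Ndufb10) had log2 fold changes of 0.07 to 0.18.

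The genes that are not subunits of complex I in current usage stood at opposite signs. Ndufa4 read 7498, 8367 and 1334 in labelled knockout against 9203, 8886 and 1579 in wildtype replicates 1, 2 and 3. It was lower in both sets, with -0.21 ± 0.073 (limma adjusted p = 0.158). Ndufa4l2, which low oxygen is known to induce in other tissues, read 223, 225 and 74.9 in labelled knockout against 162, 207 and 51.3 in wildtype (0.38 ± 0.20, limma adjusted p = 0.335). It was higher in both sets at a dim signal.

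Within the set near 500, both labelled knockout arrays lay above both wildtype arrays for 24 of 35 members (68.6%) and below them for 5 (14.3%). Over all probe sets these shares were 26.9% and 31.7%. In that set 30 members (85.7%) were above zero (median 0.12), against 20 of 35 near 150 (median 0.06), where each group has 1 array. Of all probe sets tested, 46.8% were above zero near 500 and 53.1% near 150, so the members' share of 57.1% near 150 is close to that of all probe sets. In all, 19 members (54.3%) were above zero in both sets, 4 (11.4%) below in both (Ndufs5, Ndufa10, Ndufa12 and Ndufa4) and 12 had opposite signs. Over all probe sets the shares above in both and below in both were each 27.3%. The log2 fold changes of the sets, which share no array, had Pearson's r of 0.53 and Spearman's rho of 0.41 over the 35 members, and r of 0.48 and rho of 0.36 without Ndufs5. Over the 32 members with a signal above 1000 in all 4 arrays near 500 they were 0.40 and 0.31, and over all 27022 probe sets tested 0.18 and 0.13. Members share the arrays, and these values are descriptions. A test of the difference between sets passed for no member in limma (lowest adjusted p = 0.0755, for Ndufb6), with 6 members at an unadjusted p below 0.05. It passed for 1.19% of all probe sets and reached an unadjusted p below 0.05 for 15.7%.

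**Figure D3:**
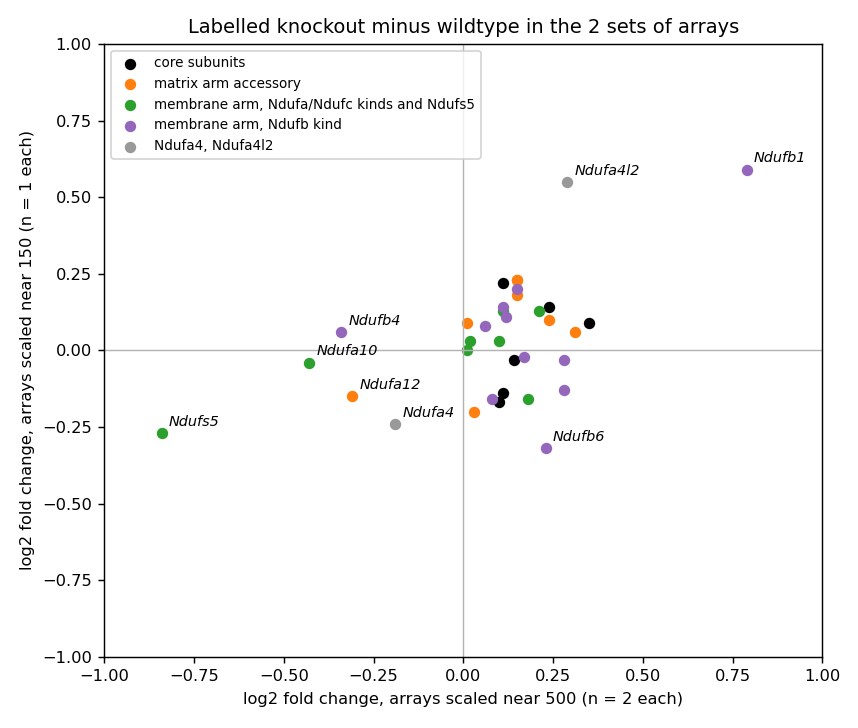
Log2 fold change (labelled knockout minus wildtype) of each of the 35 members in the 4 arrays scaled near 500 (horizontal, n = 2 each) against the 2 scaled near 150 (vertical, n = 1 each), coloured by place in the complex. The upper right corner holds 19 members, the lower left corner 4 and the other corners 12, and Ndufs5 and Ndufb1 lie farthest out.

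In the arrays scaled near 500 alone, more members were called, as were more probe sets in general (13.6% of all, 7.7% lower and 5.94% higher). Ndufs5 (adjusted p = 0.000176), Ndufa10 (-0.43, adjusted p = 0.00309) and Ndufa12 (-0.31, adjusted p = 0.0119) were called lower in limma. Ndufa2 (0.31, adjusted p = 0.0159), Ndufb7 (0.28, adjusted p = 0.0342), Ndufb2 (0.28, adjusted p = 0.0385) and Ndufa9 (0.24, adjusted p = 0.0429) were called higher. Each group has 2 arrays in that fit. The arrays also differed in how far complex I signals stood above the rest. Near 500 the members' median was 48.5 and 52.7 times the array median in labelled knockout and 39.7 and 42.6 times in wildtype. Near 150 it was 9.48 times in labelled knockout against 10.6 times in wildtype. Both parts of this ratio differed near 500. The members' medians were 5709 and 5999 in labelled knockout against 5355 and 5548 in wildtype. The array medians were 118 and 114 in labelled knockout against 135 and 130 in wildtype.

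Genes for assembly factors and for a subunit encoded in mitochondrial DNA gave no call in the 6-array fit. Of 20 genes for assembly factors and the acyl carrier Ndufab1, 19 were measured and none passed, with a median of 0.13, and 16 were above zero. The member of this list closest to the threshold was Ndufaf3, an early assembly factor, with 1917, 1827 and 261 in labelled knockout against 1406, 1407 and 212 in wildtype replicates 1, 2 and 3 (0.37 ± 0.088, limma adjusted p = 0.0614), higher in both sets. Of the subunits encoded in mitochondrial DNA only ND5 had a probe set. It read 20397 and 22488 in labelled knockout against 31871 and 35006 in wildtype arrays near 500, and 6268 against 6165 near 150. The lower signal near 500 (-0.64) was thus not seen near 150 (0.02). ND5 did not pass in the 6-array fit (-0.42 ± 0.13, limma adjusted p = 0.114). In the arrays near 500 alone ND5 was called lower (limma adjusted p = 0.000442) and Ndufaf3 higher (0.41, limma adjusted p = 0.0116). No other gene of the assembly list passed there, where 13.6% of all probe sets were called. Genes of complexes II to V, for comparison, had a median of 0.07 over 44 tested in the 6-array fit, with none called and 27 above zero (61.4%). Whether this share differs from the 82.9% of the 35 members, which count Ndufa4 and Ndufa4l2, was not tested. In the arrays near 500 alone several genes of complexes II to V passed. Atp5k was lower (-0.40, limma adjusted p = 0.0039) and the others were higher, among them Uqcrc2 (0.42, limma adjusted p = 0.00476).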

How the data were processed

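The authors deposited array intensities already scaled for each array, with 1 value for every probe set. GCOS 1.4 and MAS5 are named in the submitters' processing notes without role or order. After 64 Affymetrix controls were left out, log2 was taken without normalizing again. Probe sets with a mean log2 signal at or above the 40th percentile (geometric mean 54.5) were kept, 27022 of 45037. Groups were compared by a linear model with the scaling set as a block (limma 3.58.1 under R 4.3.3, moderated two-sided test with an intensity-dependent prior variance, Benjamini-Hochberg adjustment over all kept probe sets, threshold 0.05). The procedure was tested on simulated data, in which many true changes did not pass. The changed probe sets were drawn at random from all kept ones, whose median standard error (0.16) was above that of the members (0.077). The simulation therefore does not give a miss rate for the members. Arrays carry no read depth, and their number, 3 per group, limits the precision. A gene that did not pass may therefore still differ.

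The members, lists and tests were chosen with earlier results of these data known. Names came from the platform annotation, in which 34945 probe sets had 1 symbol, 932 several and 9160 none. Per-array values are given for Ndufs5, called members, the 5 highest and 5 lowest, the brightest and dimmest 3, and the core subunits. Deviations from group means correlated at 0.57, 0.67 and 0.843 for pairs numbered 1, 2 and 3. Those means mix the 2 scales, and each pair shares a scale, so this measure cannot show that the numbers pair the samples. Within the arrays near 500 the correlation was 0.0153, so pairs 1 and 2 share little beyond the scaling set.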

Additional observations from a re-analysis of the deposited data

How the results depend on the processing

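The number of arrays and the 2 scales limit what can be resolved. Of all probe sets, 609 were called in limma, against 200 with the replicate block, 19 without a variance trend, 405 without the filter on dim probe sets, 955 with a filter at the 60th percentile, 3687 in the arrays near 500 alone, and 77 to 3710 when 1 array was left out. Higher calls made up 46% of the calls, and 68.4% without a variance trend. The stricter filter left 32 members to test. With no batch term 0 were called, while 118 had an unadjusted p below 0.05, none of them a member's.

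The 1 member called lower became 0 with the replicate block, without a variance trend and with no batch term, 3 in the arrays near 500 alone, 2 over all 70 kept probe sets of the members, and 0 to 3 when 1 array was left out. The 0 members called higher (8 at an unadjusted p below 0.05) became 4 in the arrays near 500 alone and 0 to 4 when 1 array was left out. Counts of 3 and 4 came from leaving out either array near 150, which makes the fit one of the arrays near 500.

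Ndufs5 had -0.65 in each of 3 fits in which its adjusted p missed the threshold: 0.072 with the replicate block, 0.251 without a variance trend and 1 with no batch term. Its value was -0.27 near 150, -0.84 to -0.53 when 1 array was left out, and 0.05 for the probe set shared with the pseudogene, an alternative chosen after seeing the data. The members' median of 0.11 was 0.06 near 150 and 0.06 after quantile normalization, which put 25 of 35 members above zero, and 0.08 to 0.12 when 1 array was left out. It was 0.11 without Ndufs5, also chosen after seeing the data. The replicate block changed no other member's call, and the cause of these shifts was not tested.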

Other observations

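Complex I genes whose probe sets carry several symbols lay outside the rule and are given here as values. The bright probe set of Ndufa11, a membrane arm subunit, is annotated also to Ndufa11b, a transcribed pseudogene in RefSeq. It read 3769, 3839 and 384 in labelled knockout against 2934, 3006 and 322 in wildtype replicates 1, 2 and 3. It was higher in both sets of arrays, with a log2 fold change of 0.32 ± 0.077 (limma adjusted p = 0.0617). A dim probe set with the same annotation had -0.09 ± 0.23. The probe set of Ndufs6, a zinc-binding subunit of the matrix arm, is shared with Ndufs6b, a pseudogene in RefSeq, and had 0.11 ± 0.089.

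Among members with more than 1 kept probe set, the probe sets had the same sign in 13 genes and differing signs in 5 (Ndufa3, Ndufb2, Ndufb6, Ndufs4 and Ndufs8). No probe set of these 5 genes passed.

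In the list of complexes II to V, the values nearest the threshold were those of the ATP synthase subunit genes Atp5e (0.36 ± 0.079, limma adjusted p = 0.0514) and Atp5k (-0.32 ± 0.077, limma adjusted p = 0.0632), which stood at opposite signs, and each kept its sign in both sets of arrays. Cox7c, a subunit gene of cytochrome c oxidase, had the lowest value of that list (-0.50 ± 0.17, limma adjusted p = 0.155). Its probe set was dim, with 285, 241 and 79 in labelled knockout against 349, 439 and 98.8 in wildtype replicates 1, 2 and 3.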
